A study of Mus musculus with 4 samples.

Results

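The genes described here encode the hormones of the anterior pituitary and the factor that drives several of them. *Gh*, *Prl*, *Cga*, *Tshb*, *Lhb* and *Pou1f1* are 6 of the 16339 genes counted in RNA sequencing of the mouse hypothalamus, and each of the 6 has a row in the table of counts. They were chosen by their counts in 1 library, replicate 1 of the knockout mice, against those in the other 3. What they show in that library is therefore a description and not the result of a test.

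The samples were hypothalamus of male C57BL/6 mice fed a western diet (WD), that is, a diet of 60% fat with a 30% sucrose solution, for 12 weeks. There were 2 libraries of wild-type mice, WT WD replicates 1 and 2 (WT1 and WT2 below), and 2 of mice lacking *Tas1r3* in every cell, *Tas1r3*-/- WD replicates 1 and 2 (KO1 and KO2 below). The WT mice were littermates of the knockout mice, matched for age and weight at 23 to 25 g. The mice were 8 weeks old when the diets began, and none of the libraries is of mice on the normal diet. The sequencing is described with 3 mice in each group. The counts used here cover 2 libraries a group, all of which were analysed. The labels do not say whether a library holds 1 animal or a pool, so the p-values below measure only the spread between these libraries.

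The anterior pituitary hangs below the hypothalamus and is reached by releasing factors through the portal vessels of the median eminence. Somatotrophs make growth hormone (*Gh*), lactotrophs prolactin (*Prl*), thyrotrophs thyrotropin and gonadotrophs the gonadotropins. Thyrotropin and the gonadotropins are pairs of proteins that share 1 alpha subunit, encoded by *Cga*, and differ in the beta subunit, which *Tshb* encodes for thyrotropin and *Lhb* for luteinizing hormone. *Pou1f1* encodes the POU homeodomain factor Pit-1, which is needed for somatotrophs, lactotrophs and thyrotrophs. The hormone genes are defining markers of the pituitary and are not markers of hypothalamic neurons, except *Pomc*, which neurons of the arcuate nucleus express as well.

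The library totals lay between 5728729 and 6180137 estimated counts in named genes. *Tas1r3* itself had 35.3 estimated counts in WT1, 27 in WT2, 7 in KO1 and 7.01 in KO2. WT2 stood apart from its label. *Nkx2-1*, a factor that defines the developing and adult hypothalamus, had 0 counts there and at least 177 in each other library. *Nr5a1*, which marks the ventromedial nucleus, had 0 counts there against 77 to 190, and *Avp*, the vasopressin gene, had 14.0 counts against 1157 to 1952. Several, but not all, of the results that rest on this library are therefore also given without it.

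The promoters of the genes are shown because the genes share a pattern across the libraries, and because *Pou1f1*, whose product binds several of them, is one of the genes. Of the 6 genes, 5 have an entry in the RefSeq table used, and *Gh* has none. That of *Lhb* is not printed, since its RefSeq start site lies 126 bases inside the first exon of GENCODE, so that the window holds untranslated sequence. Each sequence is the 250 bases before the start site, read 5′ to 3′ on the strand of the gene. The sequences come from RefSeq on GRCm38.p6, and each was matched without a mismatch to 1 place on its chromosome in GRCm39 (mm39), the build of the alignments. Capitals mark matches, on either strand, to ATGNATA for Pit-1, to CAAGGNCA for Nr5a1 and to TATAAA for the TATA box. Adjoining capitals can be matches that overlap.

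*Prl*, plus strand, chr13:27241303-27241552: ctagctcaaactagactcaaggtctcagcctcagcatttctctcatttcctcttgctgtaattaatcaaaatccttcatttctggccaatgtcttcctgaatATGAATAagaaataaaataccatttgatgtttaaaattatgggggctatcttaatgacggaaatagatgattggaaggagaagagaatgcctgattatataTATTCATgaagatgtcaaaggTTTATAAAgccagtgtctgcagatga

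*Tshb*, minus strand, chr3:102690031-102690280: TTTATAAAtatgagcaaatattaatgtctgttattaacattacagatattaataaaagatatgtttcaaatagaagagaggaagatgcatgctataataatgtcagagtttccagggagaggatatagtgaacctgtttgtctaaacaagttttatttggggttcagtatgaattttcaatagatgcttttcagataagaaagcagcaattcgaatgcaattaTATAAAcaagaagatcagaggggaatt

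*Pou1f1*, plus strand, the first of its 2 start sites, chr16:65317148-65317397: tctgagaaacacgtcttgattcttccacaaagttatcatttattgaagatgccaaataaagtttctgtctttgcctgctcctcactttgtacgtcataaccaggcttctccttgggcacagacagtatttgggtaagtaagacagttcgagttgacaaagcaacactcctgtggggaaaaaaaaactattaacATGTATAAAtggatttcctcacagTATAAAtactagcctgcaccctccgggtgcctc

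*Cga*, plus strand, chr4:34893529-34893778: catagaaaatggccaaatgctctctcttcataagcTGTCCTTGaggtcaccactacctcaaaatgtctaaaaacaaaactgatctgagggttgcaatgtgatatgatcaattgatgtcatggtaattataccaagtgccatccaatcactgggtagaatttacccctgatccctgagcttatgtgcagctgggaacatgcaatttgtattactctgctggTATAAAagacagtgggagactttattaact

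The Pit-1 letters occur at 2 places before *Prl*, from base -148 to -142 and from -47 to -41, where -1 is the base just before the start site. They also occur before *Pou1f1* itself, from -57 to -51, overlapping a TATA match. Before *Tshb*, *Cga* and *Lhb* they are absent. Among all 32851 RefSeq promoters of this length, 7.92% hold them. The Nr5a1 letters, the binding site of the factor also called SF-1, occur before *Cga* and *Lhb* but not before *Fshb*. They lie from -215 to -208 before *Cga*, and from -129 to -122 and from -59 to -52 before the RefSeq start of *Lhb*, and 5.53% of all promoters hold them. TATAAA was present before each of the 5 genes, for *Pou1f1* at the first of its 2 start sites only, and before *Fshb* and *Pomc*. Of all promoters, 12.4% hold it. The letters TAATCC, bound by Pitx factors, and TGACGTCA, the full cAMP response element, were found before none of these 7 genes, and 6.25% and 1.55% of all promoters hold them. A match describes letters and not binding.

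Counts of *Gh* (ENSMUSG00000020713, chromosome 11 of GRCm39, 106191095 to 106192691, minus strand) were 71 in WT1, 0 in WT2, 4741 in KO1 and 14 in KO2. CPM, the counts relative to a library size scaled by the TMM method of edgeR, were 12.2 in WT1, 0 in WT2, 760 in KO1 and 2.45 in KO2. KO1 was 62.4-fold above the next library, WT1, with a 95% exact interval of 49.4 to 80.1. It was at least 1541-fold above WT2, where a count of 0 allows up to 3 counts. The intervals and limits cover counting error only. The other *Tas1r3*-/- WD library lay below WT1, so the genotypes overlapped.

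*Prl* (ENSMUSG00000021342, chromosome 13, 27241553 to 27249188, plus strand) had 8 counts in WT1, 0 in WT2, 3104 in KO1 and 3 in KO2. This is 498 CPM in KO1 and at most 1.37 CPM elsewhere, a ratio to the next library of 363 (95% exact interval 184 to 841), the largest of the 6. Of the 2 RefSeq transcripts of *Prl*, the one listed as NM_011164 was assigned 61.2% of the counts in that library and the other 38.8%.

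The subunit genes of the glycoprotein hormones were also highest in KO1, at lower levels. *Cga* (ENSMUSG00000028298, chromosome 4, 34893779 to 34907371, plus strand) had 5 counts in WT1, 0 in WT2, 840 in KO1 and 4 in KO2. The ratio of KO1 to the next library was 157 (95% exact interval 67.1 to 485). *Tshb* (ENSMUSG00000027857, chromosome 3, 102682781 to 102690034, minus strand) had 0 counts in WT1 and WT2, 36.9 in KO1 and 1.00 in KO2. *Lhb* (ENSMUSG00000100916, chromosome 7, 45070244 to 45071321, plus strand) had 1 count in WT1, 9 in WT2, 154 in KO1 and 3 in KO2. For *Lhb* the ratio of KO1 to the next library was 16.7 (95% exact interval 8.56 to 37.2). For *Tshb* it was 33.8 against the single count of KO2 (95% exact interval 5.72 to 1375), and 11.3 with each library raised to at least 3 counts. *Tshb* lies within *Tspan2* and *Lhb* within *Ruvbl2*, both on the opposite strand. Whether the counting used the strand is not given in the sources used here, so reads of such partners cannot be told apart. *Ruvbl2* was at 46.0 CPM in KO1 and at 48.3 to 63.8 CPM in the others, with the highest value in WT2, where *Lhb* also had its 9 counts. *Tspan2* was at 110 CPM in KO1, within its range of 96.2 to 123 CPM in the others.

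*Pou1f1* (ENSMUSG00000004842, chromosome 16, 65317397 to 65331183, plus strand) was the lowest of the genes, with 12.5 estimated counts in KO1, 1.5 in WT2 and 0 in the other 2 libraries. The ratio to the 1.5 counts of WT2 was 8.11, and it was 3.81 with each library raised to at least 3 counts. The 95% exact interval, computed on counts rounded to 12 in KO1 and 2 in WT2, was 1.30 to 53.8. A lncRNA gene, *Gm49631*, overlaps it on the opposite strand.

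**Figure D1:**
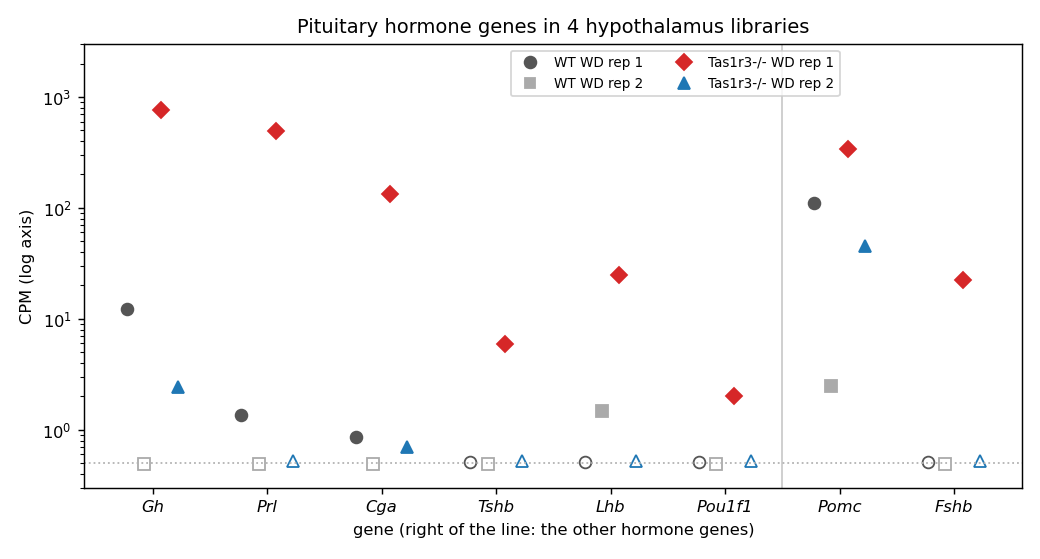
CPM (log axis) of the 6 genes and of Pomc and Fshb in the 4 libraries, 1 symbol per library. Open symbols have 3 counts or fewer and are drawn no lower than the level of 3 counts, near the dotted line, and each gene is highest in Tas1r3-/- WD replicate 1, from 760 CPM for Gh down to Pou1f1 with 12.5 counts.

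All 6 genes thus had their highest CPM in KO1, where 22.8% of all genes with a row had theirs. Since the genes were chosen for this, nothing is read from the difference. Their median log2 ratio of that library to the mean of the other 3, with a floor of 3 counts in each library, was 6.06, beside a median of -0.01 over all genes. Together they held 1425 CPM in that library and 14.6, 1.73 and 4.37 CPM in WT1, WT2 and KO2. In bulk samples like these, more cells of a type and more RNA per cell cannot be told apart.

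The make-up of these counts also varied. In KO1, *Gh* held 53.3% of the 8888 counts of the 6 genes, *Prl* 34.9%, *Cga* 9.45%, *Lhb* 1.73%, *Tshb* 0.416% and *Pou1f1* 0.135%. In WT1, *Gh* held 83.5% of 85 counts (95% Wilson interval 74.2 to 89.9%) and *Prl* 9.41%. Counts of *Prl* for each count of *Gh* were 0.655 (95% exact interval 0.626 to 0.685) in KO1, 0.113 (0.0468 to 0.234) in WT1 and 0.214 (0.0395 to 0.768) in KO2. The interval of WT1 lay below that of KO1, whereas that of KO2 included the value of KO1. Per kilobase of the canonical transcript in GENCODE, the order of levels in KO1 was *Gh* (5487 counts per kilobase), *Prl* (3464), *Cga* (1221), *Lhb* (227), *Tshb* (65.8) and *Pou1f1* (9.53). The alpha subunit was therefore counted at a higher level than either beta subunit.

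**Figure D2:**
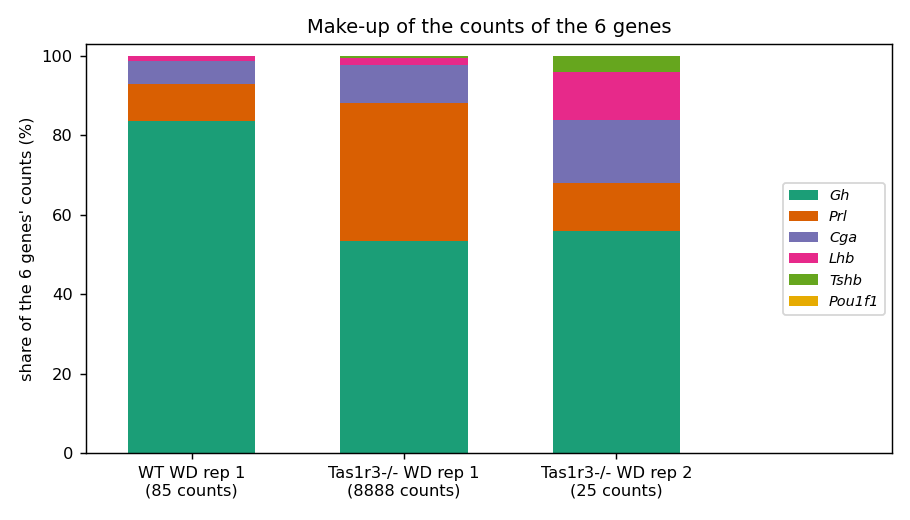
Share of the counts of the 6 genes (percent, stacked to 100) in the 3 libraries that hold counts of Gh. Gh has 83.5% of 85 counts in WT WD replicate 1, 53.3% of 8888 in Tas1r3-/- WD replicate 1 and 56.0% of 25 in Tas1r3-/- WD replicate 2.

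The other hormone genes of the anterior pituitary are *Fshb*, the beta subunit of follicle-stimulating hormone, and *Pomc*, the precursor of corticotropin and melanocortins. *Fshb* had 0 counts in WT1, 2 in WT2, 141 in KO1 and 1.01 in KO2, close in count to *Lhb* in KO1. The counts of *Fshb* for each count of *Lhb* were 0.916 there, with a 95% exact interval of 0.723 to 1.16. Per kilobase of the canonical transcript, *Fshb* was lower, with 88.1 counts in KO1 against 227 for *Lhb*. *Pomc* had 651 counts in WT1, 15.0 in WT2, 2134 in KO1 and 258 in KO2. KO1 was 3.07-fold above the next library for *Pomc* (95% exact interval 2.81 to 3.35), a smaller ratio than those of the hormone genes above. Counts of *Pomc* for each count of *Gh* were 0.450 in KO1, 9.17 in WT1 and 18.4 in KO2, so that KO1 was the one library of these 3 with fewer counts of *Pomc* than of *Gh*.

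Genes with a pattern most like that of the 6 were found by ranking the 14339 genes with at least 10 counts in KO1. The measure was the ratio of CPM in that library to the highest of the other 3, each library raised to at least 3 counts. *Prl*, *Cga* and *Gh* took ranks 1, 2 and 3, *Lhb* rank 6, *Tshb* rank 8 and *Pou1f1* rank 21. Of all genes ranked, 17 (0.119%) were at least 4-fold above every other library, and 5 of these 17 were among the 6 genes, the exception being *Pou1f1* at 3.81-fold. With the same measure, 2 genes were past 4-fold in WT1, 150 in WT2 and 2 in KO2. Among the 10 other genes nearest the top were *Fshb*, *Cyp2f2*, *Epcam*, *Pitx1*, *Ghrhr*, *AI606473*, *Gm32687*, *Ces1d* and *Slc26a7*, with ratios from 43.1 for *Fshb* to 4.58 for *Slc26a7*. *Pitx1* encodes a homeodomain factor of the pituitary and had 34.1 counts in KO1 and at most 1.13 in another library. *Ghrhr*, the receptor through which somatotrophs sense growth hormone-releasing hormone, had 18 counts there and 0 in each of the others. *Cyp2f2*, a cytochrome P450, had 84.5 counts against at most 1. *Epcam*, an adhesion molecule of epithelial cells, had 51 counts against at most 4.

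**Figure D3:**
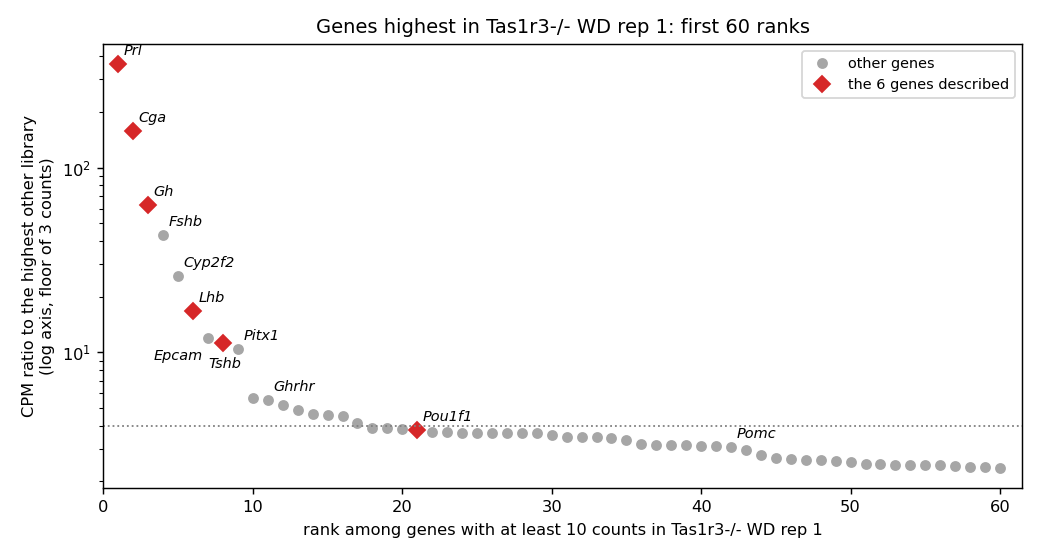
Ratio of CPM in Tas1r3-/- WD replicate 1 to the highest CPM of the other 3 libraries (log axis, each library raised to at least 3 counts) for the first 60 ranks of 14339 genes. Prl, Cga and Gh hold ranks 1 to 3, Pou1f1 rank 21 and Pomc rank 42, and the dotted line marks 4-fold.

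Defining markers of each hormone cell class of the anterior pituitary were counted in KO1. The somatotroph genes *Gh*, *Ghrhr* and *Pou1f1*, the lactotroph gene *Prl*, the thyrotroph genes *Tshb* and *Cga* and the gonadotroph genes *Lhb*, *Fshb* and *Cga* were each highest there. For corticotrophs and melanotrophs, *Pomc* and *Tbx19* (35 counts there, 3 to 17 elsewhere) were highest there, whereas *Pax7* was not, with 10 counts there and 14 in WT1. The gonadotroph marker *Nr5a1* was also not highest there, with 116 counts against 190 in WT1. *Mtnr1a*, the melatonin receptor that marks the pars tuberalis, had 2 to 4 counts in every library. *Gnrhr* has no row in the table, which lists only transcripts with at least 10 counts over the libraries. Whether pituitary tissue came with this dissection was not tested, and no cell was counted.

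Of 12 transcription factors of pituitary development, 8 had a row, and 6 of these were highest in KO1. Besides *Pitx1*, the differences were smaller, as for *Tbx19* with 35 counts in KO1 and 17 in WT1.

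The releasing and inhibiting factors of the hypothalamus, which act on the pituitary, showed another order. None of the 9 in the list was highest in KO1, and 8 were lowest in WT2, as were 5522 of all 16339 genes with a row. *Ghrh*, the releasing hormone of *Gh* (named after its values were seen), was at 18.5 CPM in WT1, 0.987 in WT2, 4.33 in KO1 and 7.87 in KO2. *Sst*, somatostatin, which inhibits the release of growth hormone, was at 188 CPM in WT1, 25.4 in WT2, 128 in KO1 and 129 in KO2. *Trh*, which acts on thyrotrophs and lactotrophs, had 600 counts in WT1, 10 in WT2, 556 in KO1 and 527 in KO2. KO1 thus lay close to KO2 for *Sst* and *Trh*, in contrast to the hormone genes.

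Of 11 receptors that pituitary cells use, 9 had a row and 3 were highest in KO1. *Ghrhr* alone passed 4-fold. *Drd2*, the dopamine receptor that restrains prolactin, was at 32.9 CPM there and 22.1 to 28.3 CPM elsewhere, and *Sstr2*, a somatostatin receptor, at 19.4 CPM there and 20.6 to 28.6 CPM elsewhere. Both are also expressed by brain cells. Genes of secretory granules, shared by endocrine cells and neurons, were highest there in 3 of 9, and their summed level lay between 5064 and 5187 CPM in all 4 libraries. Single members differed in WT2, where 7 of the 9 were lowest. *Scg2*, a secretogranin, was at 516 CPM there and 1233 to 1300 elsewhere, whereas *Cpe*, a carboxypeptidase of prohormone processing, was at 2635 CPM there and 1698 to 1797 elsewhere.

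Other tissue at the border of the hypothalamus was read from lists of markers. Of 6 fibroblast genes, 5 were highest in KO1, and their sum was 74.9 CPM there and 32.1 to 44.8 CPM elsewhere. *Dcn*, decorin, was at 22.0 CPM there and 7.87 to 11.5 CPM elsewhere, and *Col1a2*, a collagen chain, at 31.3 CPM there and 14.3 to 16.1 CPM elsewhere. Of 7 choroid plexus genes, none was highest there, and their sum was 764 CPM in WT2 and 40.1 to 59.0 CPM in the others. *Ttr* held 677 CPM of the sum in WT2, whereas *Clic6* and *Kl* were highest in WT1, at 40.8 and 12.2 CPM. Globin and heme genes of blood summed to 767 CPM in KO1, between the 379 and 453 CPM of WT1 and KO2 and the 1955 CPM of WT2. Of 7 genes of folliculostellate and stem cells, 3 were highest in KO1, *Cyp2f2* by far the most, and of 7 genes of pituicytes and tanycytes, 3. The part of these tissues in the hormone counts was not tested.

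**Figure D4:**
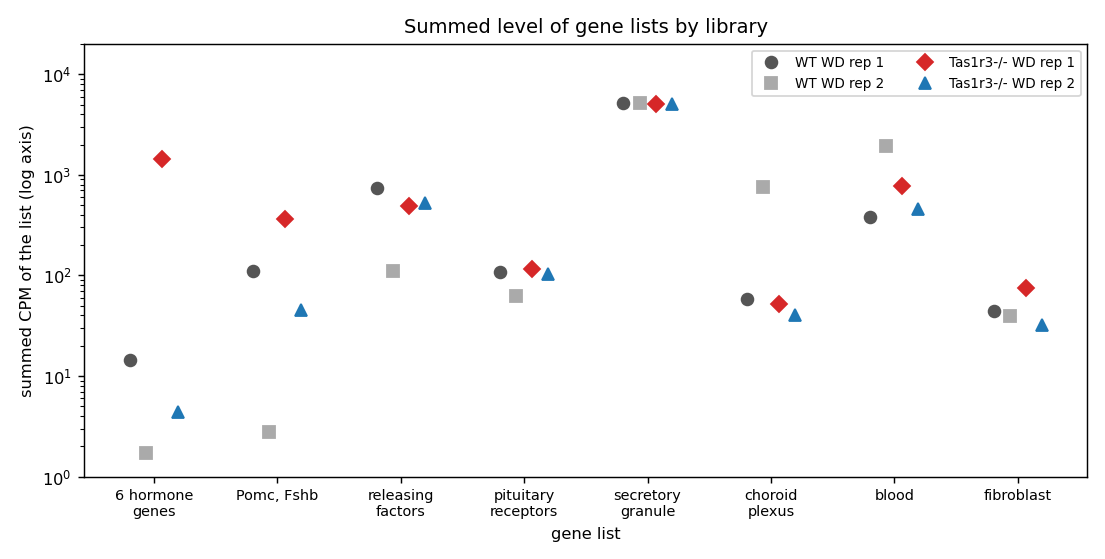
Summed CPM (log axis) of 8 gene lists in each of the 4 libraries. The 6 hormone genes sum to 1425 CPM in Tas1r3-/- WD replicate 1 and to at most 14.6 CPM in another library. The choroid plexus sum is highest in WT WD replicate 2, mostly through Ttr. Single secretory granule genes also differ in that library, although their sums are 5064 to 5187 CPM in all 4.

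The question of the design was whether gene expression differed between WD-fed *Tas1r3*-/- and WT mice. *Gh* was at 381 ± 536 CPM (SD, n = 2) in *Tas1r3*-/- WD and 6.09 ± 8.61 CPM (SD, n = 2) in WT WD. Its SD exceeded its mean in both groups. In the quasi-likelihood test of edgeR this was a log2 difference of 5.98 (standard error 2.69, adjusted p = 0.757). Of the 14344 genes tested, 0 (0%) passed an edgeR adjusted p of 0.05 together with a change of 1.5-fold or more, while 772 had an unadjusted p under 0.05. DESeq2 called 8 genes and limma 0, and no hormone gene was among them. *Gh* was the only one of the 6 with enough counts in enough libraries to enter this test. When all genes with at least 1 count were tested, the edgeR adjusted p was 0.790 for *Gh*, *Prl*, *Cga*, *Tshb* and *Lhb* and 0.801 for *Pou1f1*, and that of DESeq2 was 1.00 for each. These values describe the fit, since KO1, by which the genes were chosen, is one of its libraries. With all 4 libraries, no gene of the lists above was called by edgeR or DESeq2 in either direction. Without WT1 or WT2, 1 WT library is left, so calls of these fits are not read as results about the lists.

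The direction for *Gh* rested on 1 library, and for the others the difference without it was small or rested on few counts. For these, the log2 ratio of the group means was taken without KO1, with each library raised to at least 3 counts. It was -0.83 for *Prl*, -0.93 for *Lhb*, 0.05 for *Cga* and 0.06 for *Tshb* and *Pou1f1*. *Prl* and *Lhb* had 3 counts each in KO2, a level that cannot be told from 0. Without KO1, the log2 fold change of *Gh* was -1.30 (edgeR adjusted p = 1.00) and that of *Pomc* -0.34, against 1.77 (standard error 1.64, edgeR adjusted p = 0.793) with it. Without WT2 the log2 fold change of *Gh* was 4.97, and without WT1 it was 14.2, where the one WT library left has 0 counts and the value depends on the prior count. *Pomc* passed the threshold in that fit alone, at 6.29 (edgeR adjusted p = 0.00946), against the 15.0 counts of WT2.

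Receptors and targets of the hormones in brain tissue were read from lists of 7 and 13 genes. Of these, 5 and 12 were tested, and none was called in either direction by edgeR, with 0 and 1 at an unadjusted p under 0.05, or by DESeq2. Calls of the fit without WT1, where WT2 is the one WT library left, are not read as results about these lists. The median log2 fold change was 0.60 for the receptors and 0.17 for the targets, beside -0.01 over all genes tested. Of the genes with a row, 4 of 6 receptors and 6 of 12 targets were lowest in WT2, as were 5522 of all 16339 genes. *Prlr*, the prolactin receptor, was at 28.1 CPM in WT1, 7.5 in WT2, 41.5 in KO1 and 42.8 in KO2. On the log2 scale the knockout libraries were higher by 1.24 (standard error 0.58, edgeR adjusted p = 0.757), by 0.59 without WT2 and by 2.48 without WT1, where the edgeR adjusted p was 2.46e-05 against WT2 alone. KO1 and KO2 were thus close for *Prlr*, whereas *Prl* itself had 3104 and 3 counts in them. *Dio2*, the deiodinase that activates thyroid hormone and responds to thyrotropin in tanycytes (named after its values were seen), was at 9.77 CPM in WT1, 15.8 in WT2, 23.9 in KO1 and 20.3 in KO2. The log2 difference was 0.79 (standard error 0.29, edgeR adjusted p = 0.757). It was 1.18 without WT2 and 0.49 without WT1. The growth hormone targets *Igf1* and *Socs2* (also named after their values were seen) had lower fitted levels in the knockout libraries, with log2 differences of -1.04 (standard error 0.86, edgeR adjusted p = 0.777) and -0.92 (standard error 0.46, edgeR adjusted p = 0.757). Both were highest in WT2. *Igf1* was at 15.0 CPM there, 2.37 in WT1, 3.36 in KO1 and 5.06 in KO2. Its lower level in the knockout libraries thus rested on WT2, since WT1 lay below KO1 and KO2. *Socs2* was at 12.9 CPM in WT2, 6.17 in WT1, 5.93 in KO1 and 4.20 in KO2. Of the 12 targets tested, 8 had log2 differences above 0, among them *Stat5b* at 0.41. *Cish* at 0.28 and *Socs3* at 0.29 (also named after their values were seen) were others. For *Prlr* and *Dio2*, KO1 and KO2 were each higher than WT1 and WT2, as they were for 3268 of all genes with a row.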

How the data were processed

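Total RNA of the hypothalamus was made into Ion Torrent libraries after mRNA isolation and depletion of ribosomal RNA. According to the methods of the study and the submitters' processing notes, the authors used STAR within Partek Flow to align reads to mm39, and quantified RefSeq transcripts. The authors deposited an estimated count (expected count) for each of 30930 transcripts and 4 libraries, without normalization, and 13.2% of the values are whole to within 1e-06. Each single-sample table holds the same values as its column in the joint table.

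Accessions were stripped of version suffixes and paired with gene symbols through a RefSeq table of GRCm38.p6, which named 30891 transcripts. The other 39 (0.347% to 2.49% of the counts) entered neither the library sizes nor the tests. Transcripts were summed to 16339 genes and rounded for the count models. CPM used TMM factors, and 3 counts equal 0.481 to 0.525 CPM. Differential expression was tested with the quasi-likelihood test of edgeR 4.0.16 (R 4.3.3) with filterByExpr and Benjamini-Hochberg adjustment over all genes. Its standard errors were derived from the test, as the absolute log2 fold change divided by the square root of the F statistic. Alternatives were RLE factors, total counts, no filter, at least 10 counts in every library, DESeq2 1.42.0 (which the methods of the study name), limma-trend (limma 3.58.1, prior count 2), a replicate block, the most abundant transcript alone, a floor of 1 count, no fold threshold and each library left out in turn. Leaving out libraries for the count of genes highest in 1 library, and DESeq2 without a filter, were chosen after seeing the data. The tests were tested on simulated data. Ratios of counts carry exact binomial intervals from scipy 1.17.1, and shares Wilson intervals, both computed on rounded counts. Coordinates and lengths are from GENCODE M39 and, where genes share a name (*Lhb*), from the one whose canonical transcript has a CCDS entry. Python 3.11.15 and matplotlib 3.10.9 made the figures.

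The 6 genes and all lists were chosen with earlier results of these data known. Named genes were the 6, *Pomc*, *Fshb*, the markers of hormone cell classes, from each other list some of the 4 genes with the most counts and any gene at least 4-fold above all other libraries in KO1, the 10 genes most like the 6 by ratio, and those said to be named after their values were seen. Some genes that this rule names are not reported here.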

Additional observations from a re-analysis of the deposited data

How the results depend on the processing

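All 6 genes were highest in KO1 under RLE factors, total counts, the most abundant transcript alone and with each of the other libraries left out. Their median log2 ratio stayed between 5.77 and 6.22 with each of the other libraries left out and was 6.19 with a floor of 1 count. With that floor the log2 ratio of *Tshb* was 5.12 in place of 3.53 and that of *Pou1f1* 3.34 in place of 1.97, and with the most abundant transcript alone that of *Tshb* was 2.94. The count of genes past the threshold between genotypes was 0, and 8 with DESeq2. With 1 library left out, the lone library of a group being assumed to vary like the others, it ranged from 0 to 2123, with 2123 without WT1, where the lone WT library is the one without *Nkx2-1* counts, and 32 without WT2. *Pomc* and *Prlr* were among the genes past the threshold without WT1. With the replicate number as a block it was 0, and the log2 fold change of *Gh* was 5.98 (edgeR adjusted p = 0.137). Same-numbered libraries deviated together with a correlation of 0.08 over genes. With 2 pairs, and with WT2 apart from its label, this cannot decide whether the numbers pair the libraries.

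Signs turned for some genes. With each library left out in turn, log2 fold changes ranged from -1.30 to 14.2 for *Gh*, -0.34 to 6.29 for *Pomc*, -0.83 to 9.06 for *Prl* and -0.93 to 4.63 for *Lhb* (both as ratios of group means), -1.61 to 2.60 for *Ghrh*, -0.75 to 6.43 for *Avp*, -0.55 to 2.34 for *Sst*, -0.18 to 5.77 for *Trh*, -0.20 to 0.37 for *Drd2*, -1.02 to 9.60 for *Nr5a1*, -0.48 to 10.5 for *Nkx2-1*, -0.35 to 1.13 for *Dcn* and -0.13 to 0.99 for *Col1a2*. *Ghrh* was at 0.31 and *Nr5a1* at 2.28 with limma-trend, and *Nr5a1* at 1.08 with the replicate block. The cause was not tested. At these library sizes a gene with 3 counts or fewer cannot be told from 0.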

Other observations

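The transcripts of *Pomc* were divided differently among the libraries. The one listed as NM_001278584 was assigned 31.4% of the *Pomc* counts in WT1, 44.0% in KO2, 54.8% in KO1 and 80.4% of only 15.0 counts in WT2. The one listed as NM_008895 was assigned 68.6%, 55.7%, 44.6% and 19.1% in the same order. These shares are estimates of the authors' quantification, with no interval, and they were not tested.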
